A study of Mus musculus with 2 samples.

Results

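Costimulatory and adhesion ligands are the surface proteins through which a macrophage or dendritic cell contacts a T or NK cell and sets how strongly that cell responds to antigen. Their messenger RNAs were examined here in unstimulated bone marrow-derived macrophages, as the 10 rows of the deposited table, of 16463 in all, whose symbol is Cd40, Cd80, Cd86, Cd274, Pdcd1lg2, Icosl, Cd83, Icam1, Cd48 or Tnfsf9. All 10 had a row, and 8 of them had at least 20 counts in 1 library, as did 11525 genes of the whole table. The TKO library came from mice labelled mir-106a~363-/- and mir-106b~25-/- that also carried a floxed mir-17~92 cluster (flox/flox) and Lyz2-Cre, which drives Cre recombinase in myeloid cells from the gene for lysozyme M. The WT library came from mice carrying Lyz2-Cre alone, so both genotypes had the Cre. Both are labelled C57BL/6J, and marrow cells of each were grown for 5 days with medium conditioned by L929 fibroblasts, a source of macrophage colony-stimulating factor. The sources used here do not give the age or number of mice per library. Each genotype had 1 library, so no test was made, no difference has a replicate check, and every interval covers counting error only.

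T cells need a costimulatory signal beside the antigen receptor. The B7 proteins CD80 and CD86 give that signal through CD28 and are bound more tightly by the inhibitory receptor CTLA-4, ICOS ligand acts through ICOS, and 4-1BB ligand, encoded by Tnfsf9, through 4-1BB. PD-L1, encoded by Cd274, and PD-L2, encoded by Pdcd1lg2, engage PD-1 and restrain the T cell. ICAM-1 and CD48 hold the cells together, ICAM-1 through the integrin LFA-1 and CD48 through CD2 and CD244. CD40 is itself a receptor, which receives CD40 ligand from T cells and signals to NF-kB, and CD83 is a surface glycoprotein of mature dendritic cells that keeps CD86 and MHC class II at the surface by opposing the ubiquitin ligase MARCH1. Resting macrophages are known to carry low amounts of several of these proteins and to raise them on activation.

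The microRNAs of the 3 clusters fall into 4 seed families, and a member of each is given here because it defines the sites looked for in the ligand genes. The sequences are from RefSeq (GRCm38.p6), 5′ to 3′, and the capitals mark the seed, bases 2 to 8.
mmu-miR-17-5p: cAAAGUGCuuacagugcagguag
mmu-miR-18a-5p: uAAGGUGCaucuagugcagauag
mmu-miR-19b-3p: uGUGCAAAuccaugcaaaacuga
mmu-miR-92a-3p: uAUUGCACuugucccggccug
All 13 mature microRNAs searched for by name had a RefSeq entry, and within each family they shared 1 seed. The longest annotated 3' UTR of each ligand gene (GENCODE M21, GRCm38) was then searched for the 7 bases that pair with each seed. A match was present in 3 of the 10 genes. Of the 10773 genes searched with at least 20 counts, 36.0% had a match to any of the 4 families. That set leaves out Pdcd1lg2 and Tnfsf9, so of the ligand genes in it only Cd274 and Cd80 had a match. Cd274 held 1 match to the miR-17 family, Cd80 held 1 to miR-17 and 1 to miR-19, and Pdcd1lg2 held 2 to miR-17 and 1 to miR-19. The matches, in capitals with flanking bases of the transcript strand, are shown because these 3 genes alone among the 10 carried any.
Cd274, miR-17 family: gattggtgtgGCACTTTattctttt
Cd80, miR-17 family: ttttcagccaGCACTTTccaggtat
Cd80, miR-19 family: atagggacgaTTTGCACatttgctt
Pdcd1lg2, miR-17 family, first: cctgccatttGCACTTTtgaaccct
Pdcd1lg2, miR-17 family, second: gaccccaatgGCACTTTagacttac
Pdcd1lg2, miR-19 family: ggacctgccaTTTGCACttttgaac
The miR-19 match of Pdcd1lg2 and its first miR-17 match overlapped. The Cd274 match began 2586 bases into a 3' UTR of 2683 bases, near its end, whereas the Cd80 matches began at bases 248 and 800 of 1896. A seed match is a description of the sequence and does not show that a microRNA acts there.

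**Figure D1:**
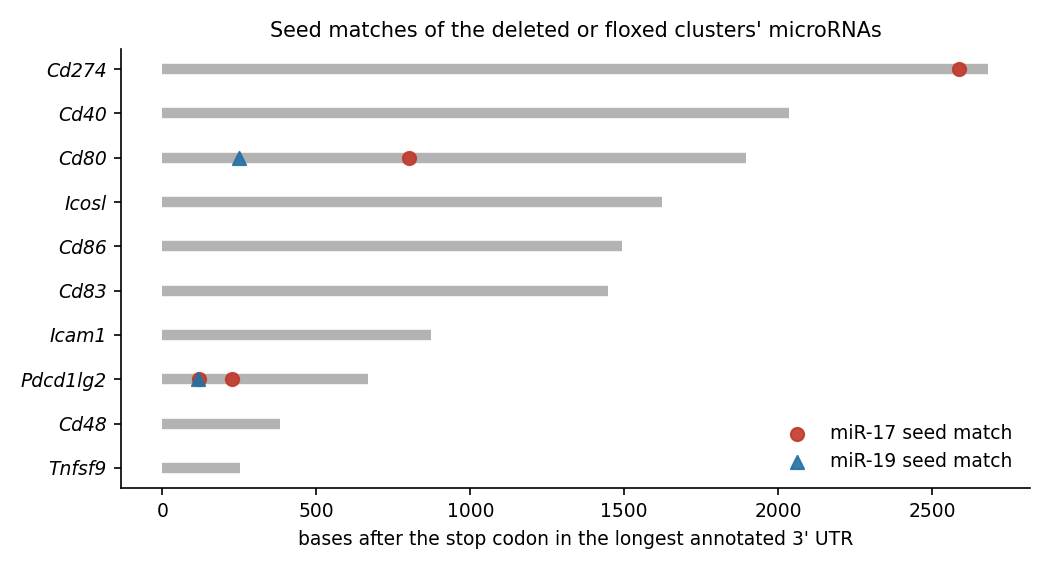
Longest annotated 3' UTR of each of the 10 ligand genes as a bar, in bases after the stop codon, with matches to the miR-17 seed as circles and to the miR-19 seed as triangles. Cd274, Cd80 and Pdcd1lg2 hold matches, and the Cd274 match lies near the end of its 3' UTR.

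The libraries held 10656465 estimated counts for TKO and 10877917 for WT. Mir17hg, the host transcript of mir-17~92, had 42 counts in TKO and 8 in WT, and Mcm7, whose intron holds mir-106b~25, had 1083 in TKO and 1228 in WT. These host transcripts do not measure the mature microRNAs and so do not check the genotype labels. The macrophage markers fixed for this check were all present, at unequal levels. Csf1r, the receptor for macrophage colony-stimulating factor, was at 893 FPKM in TKO and 975 in WT. Cd68, a lysosomal glycoprotein, was at 1440 in TKO and 1124 in WT. Lyz2 and Mertk were much lower, at 35.89 and 29.48 FPKM in TKO and 33.08 and 34.53 in WT. None of the 9 macrophage markers reached a 2-fold difference, and their median log2 ratio was -0.089. Of these, 3 had intervals above 0 and 5 below it.

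Of the 10 ligand genes, 5 had more transcript in the TKO library beyond counting error, and no log2 ratio of the 9 genes with one reached 1, that is, 2-fold. Deposited FPKM, which is scaled for gene length and depth, was higher in TKO for all 10 genes, as it was for 45.7% of all 16463 genes. For Cd40, Cd80, Cd83 and Tnfsf9 the difference was within counting error, and Pdcd1lg2 had too few counts for a ratio. After removal of a smooth trend of the log2 ratio on gene length, Cd40 was at a log2 ratio of -0.014 and so on the other side of 0. Calls followed a size rule, under which the log2 ratio had to reach 1 in either direction, its 95% counting interval had to leave out 0, and 1 library had to hold 20 counts or more. By that rule 0 of the 10 were higher, against 2.43% of the genes tested, and 0 were lower, against 2.30%. The 95% interval of the log2 ratio lay above 0 for 5 genes, Cd274, Icam1, Cd86, Icosl and Cd48, against 21.8% of the genes tested, and below 0 for none of the 9 with a ratio, against 22.7%. These were also the 5 genes with at least 100 counts, among which intervals are narrow, and of all genes at that depth 24.6% had an interval above 0. The median log2 ratio of the 8 ligand genes with at least 20 counts was 0.36, against 0.0043 over all 11525 such genes. The median describes a list chosen with these results known.

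**Figure D2:**
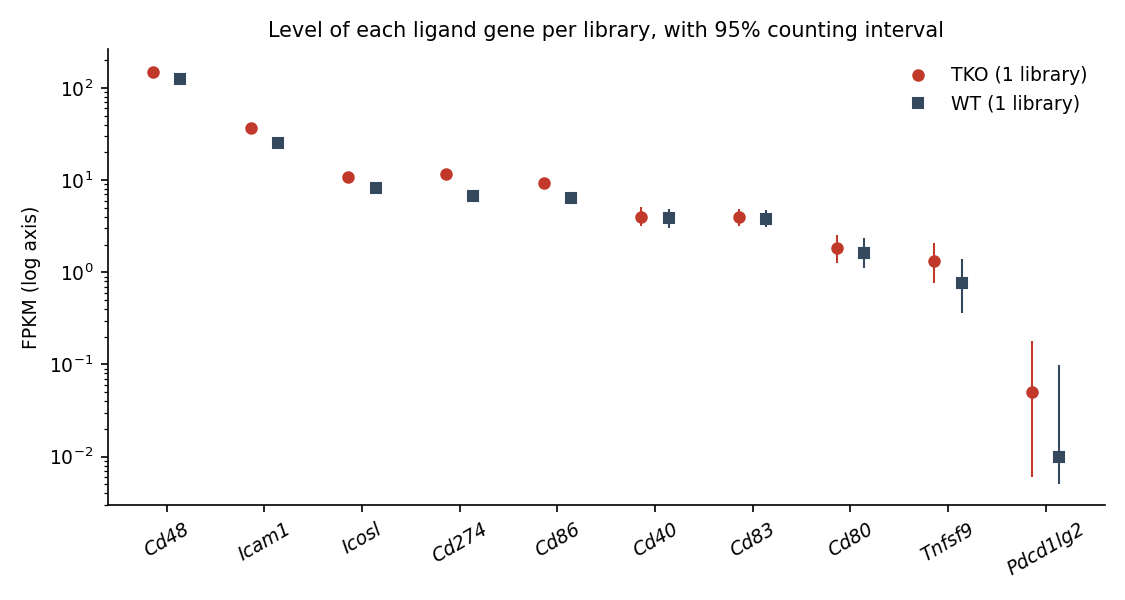
FPKM on a log axis of each ligand gene in the TKO library (circles) and the WT library (squares), with lines for the 95% counting interval of each value. Cd48 is the most abundant in both libraries and Pdcd1lg2 is near 0, with its WT lower limit of 0 drawn at the bottom of the line.

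Per length, the 10 genes spanned a wide range, and their order was nearly the same in both libraries. Cd48 stood at 149.52 FPKM in TKO and 126.04 in WT, above 97.2% and 96.9% of genes in those libraries. Icam1 followed at 36.60 FPKM in TKO and 25.35 in WT. Cd274, Icosl and Cd86 formed a middle group at 11.73, 10.91 and 9.25 FPKM in TKO, and at 6.73, 8.30 and 6.43 in WT. Cd274 was above Icosl in TKO and below it in WT, and in each library the counting intervals of neighbours within this group overlapped. Cd40 and Cd83 were lower, at 4.03 and 3.99 FPKM in TKO and 3.90 and 3.82 in WT, and did not differ from each other beyond their intervals. Cd80 and Tnfsf9, also with overlapping intervals, were lower again, and Pdcd1lg2 was last. The steps from Cd48 to Icam1, from Icam1 to the middle group, from Cd86 to Cd40, from Cd83 to Cd80 and from Tnfsf9 to Pdcd1lg2 exceeded counting error in both libraries.

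Of the pair that binds CD28 and CTLA-4, Cd86 was the more abundant. Cd86 (Entrez 12524, chromosome 16, 36603869 to 36666081, minus strand, GRCm38) had 251 counts in TKO, against 178 in WT. The TKO library was thus 1.48-fold higher (95% counting interval 1.21 to 1.80), a log2 ratio of 0.56. Cd80 (Entrez 12519, chromosome 16, 38455561 to 38496335, plus strand), which lies on the same chromosome 1789479 bases away, had 33 counts in TKO and 30 in WT. Its log2 ratio of 0.20 had an interval of -0.56 to 0.97. At this depth the counts were thus compatible with a TKO level from 0.681-fold to 1.95-fold that of WT. Cd86 exceeded Cd80 per length by 5.05-fold in TKO and by 3.94-fold in WT. The change in that balance, 1.28-fold, had an interval of 0.726 to 2.25 and so was within counting error.

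Of the pair that binds PD-1, only Cd274 was present in quantity. Cd274 (Entrez 60533, chromosome 19, 29367455 to 29388095, plus strand) had 460 counts in TKO and 269.19 in WT, where the fraction shows that some reads were assigned by estimate. It had the largest ratio of the 8 genes with at least 20 counts, 1.79-fold (1.54 to 2.09), or 0.84 on the log2 scale (0.62 to 1.06). That ratio was above 96.7% of the genes tested. Pdcd1lg2 (Entrez 58205, chromosome 19, 29410919 to 29471161, plus strand) begins 22823 bases beyond Cd274 and had 2 counts in TKO and 0 in WT. A count of 0 allows up to 3 counts, or 0.0808 FPKM for this gene in WT, so no ratio is given and a difference was not detectable. The deposited table lists every gene at 0 counts with 0.01 FPKM, from which the authors' deposited table gives Pdcd1lg2 a log2 ratio of 2.32. Of the 2 genes, both with miR-17 seed matches, Pdcd1lg2 has the larger number, and its transcript was near absent from both libraries.

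ICOS ligand and 4-1BB ligand have 1 T cell receptor each. Icosl (Entrez 50723, chromosome 10, 78069302 to 78083913, plus strand) had 321 counts in TKO and 249 in WT, 1.35-fold higher (1.14 to 1.60). Tnfsf9 (Entrez 21950, chromosome 17, 57105325 to 57107757, plus strand) had 17 counts in TKO and 10 in WT. Its 1.78-fold ratio (0.769 to 4.35) is similar in size to that of Cd274, but it rests on too few counts to be told from no difference.

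The adhesion genes were the most deeply counted. Icam1 (Entrez 15894, chromosome 9, 21015985 to 21028817, plus strand) had 994 counts in TKO, against 702 in WT, 1.48-fold higher (1.34 to 1.63). Cd48 (Entrez 12506, chromosome 1, 171682009 to 171705258, plus strand) had 1793 counts in TKO, against 1541 in WT, 1.22-fold higher (1.14 to 1.30). Its log2 ratio was 0.28, and 0.11 with the length trend removed, as its gene model of 1142 bases is the shortest of the 10. Cd40 (Entrez 21939, chromosome 2, 165055627 to 165072948, plus strand) had 73 counts in TKO and 71 in WT, and Cd83 (Entrez 12522, chromosome 13, 43784775 to 43803132, plus strand) had 91 in TKO and 89 in WT. Their log2 ratios, 0.11 (-0.39 to 0.60) and 0.098 (-0.34 to 0.54), had intervals that included 0 and lay inside 2-fold in both directions. The same held for Cd80, while the intervals of Cd86, Icosl, Icam1 and Cd48 lay above 0 and below 2-fold, and that of Cd274 reached 2.09-fold.

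**Figure D3:**
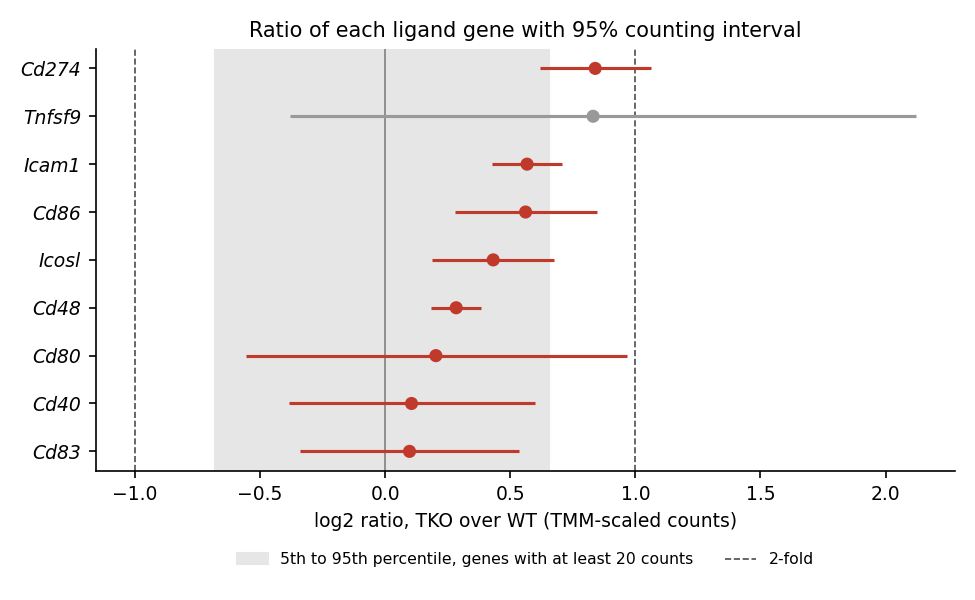
Log2 ratio of TKO over WT for 9 ligand genes, with 95% counting intervals; Tnfsf9, in grey, had under 20 counts in both libraries, and Pdcd1lg2 is not drawn. The shaded band holds the central part of all genes with at least 20 counts, from the 5th percentile at -0.68 to the 95th at 0.66, and Cd274 and the grey Tnfsf9 have points beyond it.

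The ratio of one ligand gene to another within a library needs no scaling between libraries, so it compares the genes with each other. Among the 28 pairs of the 8 genes with at least 20 counts, the change in ratio had an unadjusted 95% counting interval that excluded 1 for 7 pairs. Over all 92136 pairs of 1 of these 8 genes with 1 gene outside the ligand genes, 48.9% of intervals excluded 1, so the share within the ligand genes was not above the background. In 5 of the 7 pairs within the ligand genes, Cd274 was the gene that was relatively higher in TKO, against Cd40, Cd83, Cd48, Icam1 and Icosl. Per length, Cd274 exceeded Cd40 by 2.91-fold in TKO and by 1.73-fold in WT, a change of 1.66-fold (1.14 to 2.42). Icam1 was 0.245 of Cd48 in TKO and 0.201 of it in WT, a change of 1.22-fold (1.08 to 1.37). The other pair was Icam1 with Cd83, at 1.38-fold (1.01 to 1.91). Cd274 to Cd86 was 1.27 in TKO and 1.05 in WT, a change of 1.21-fold (0.943 to 1.56) that did not exceed counting error.

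**Figure D4:**
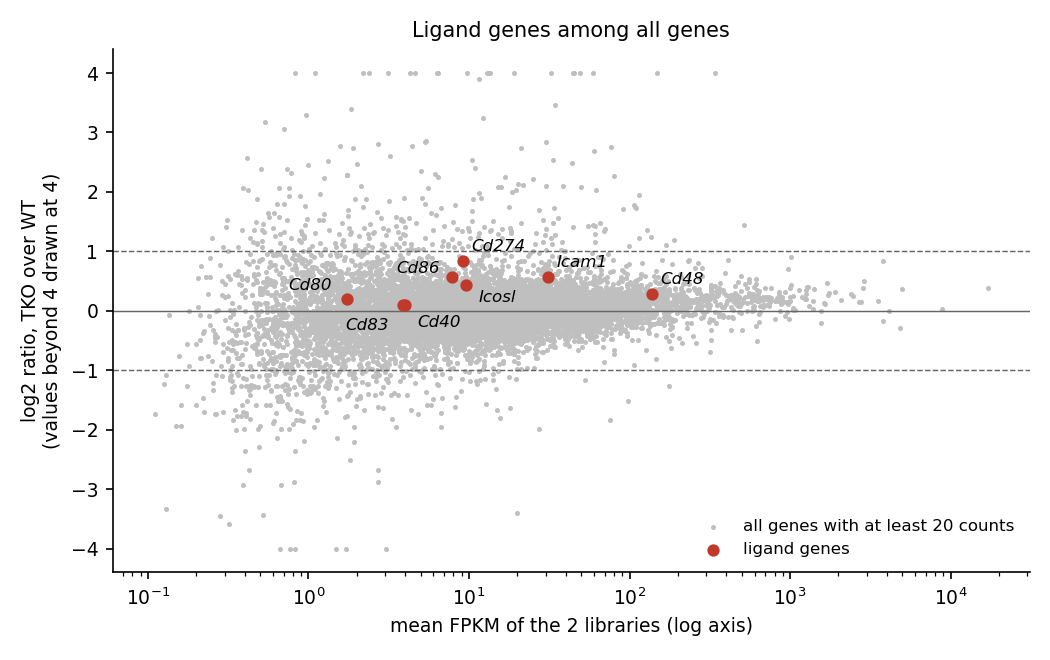
Log2 ratio of TKO over WT against mean FPKM on a log axis, for all 11525 genes with at least 20 counts in 1 library (grey) and the 8 ligand genes among them (red). The ligand genes sit between 0.098 and 0.84, below the 2-fold line.

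The genomic neighbours of Cd274 did not share its ratio to the same degree. Plgrkt, which encodes a plasminogen receptor, lies before Cd274 on the other strand, with 64 bases between the starts of the genes. Plgrkt had 324 counts in TKO and 264 in WT, a log2 ratio of 0.36 (0.12 to 0.60). Ric1, the gene after Pdcd1lg2, had 479 counts in TKO and 733 in WT, a log2 ratio of -0.55 (-0.72 to -0.38). Beside Icam1, Mrpl4, a mitochondrial ribosomal protein gene, had 0.27 (0.081 to 0.46), and the adhesion gene Icam4, 555 bases away, had 1 count in TKO and 3 in WT. Timmdc1, next to Cd80, had 0.60 (0.26 to 0.94), and Ncoa5, next to Cd40, had 0.031 (-0.21 to 0.27). Dnmt3l beside Icosl had 7 counts in TKO and 3 in WT, Ildr1 beside Cd86 had 1 in TKO and 0 in WT, and Tubb4a beside Tnfsf9 had a log2 ratio of -0.056 (-0.77 to 0.66). The other flanking genes were not analysed here. Annotated genes on the other strand overlap Cd274, Pdcd1lg2, Icam1 and Tnfsf9, and Gm37010, not analysed here, overlaps Cd48 on the same strand. The sources used here do not say whether counting used strand, so the reads of such pairs cannot be told apart, and those of Cd48 and Gm37010 could not be told apart by strand in any case.

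Promoter windows of 300 bases, from 250 before the start to 50 after it, were given by RefSeq (GRCm38.p6) for 6 of the 10 genes: Cd80, Cd274, Pdcd1lg2, Icosl, Icam1 and Cd48. They were searched on both strands for the core of the interferon-stimulated response element as GAAANNGAA and the gamma-activated site as TTCNNNGAA. The NF-kB motif was searched for as GGGRNNYYCC, where R is A or G, Y is C or T and N is any base. Across all 32851 windows, 8.56% held the first, 8.30% the second and 8.46% the third. Cd274 held 1 match to the interferon core, read on the minus strand and beginning 76 bases before its start. This match lies within the annotated Plgrkt gene, which starts on the other strand inside the window. The same core followed by a further A, a stricter form, was in 3.44% of windows and in 0 of the 6. Icam1 held 1 gamma-activated site match beginning 42 bases before its start, and Icosl and Pdcd1lg2 held 1 NF-kB match each, beginning 111 and 244 bases before theirs. The matches did not overlap another motif. The windows of Cd80 and Cd48 held no match. The Cd80 window, at 38458683 to 38458982, lies inside the annotated gene and does not cover the gene start at 38455561 given above. Those of Icam1, Icosl, Cd274 and Cd48 are shown because these are the genes with intervals above 0 that had a window, on their own plus strands and with motif matches in capitals.
Icam1, chr9:21015690-21015989: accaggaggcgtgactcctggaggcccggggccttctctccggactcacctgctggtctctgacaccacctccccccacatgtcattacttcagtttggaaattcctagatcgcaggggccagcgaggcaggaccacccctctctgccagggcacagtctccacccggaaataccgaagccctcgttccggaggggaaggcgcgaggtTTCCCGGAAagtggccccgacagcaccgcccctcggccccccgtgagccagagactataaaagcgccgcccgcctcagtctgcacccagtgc
Icosl, chr10:78069118-78069417: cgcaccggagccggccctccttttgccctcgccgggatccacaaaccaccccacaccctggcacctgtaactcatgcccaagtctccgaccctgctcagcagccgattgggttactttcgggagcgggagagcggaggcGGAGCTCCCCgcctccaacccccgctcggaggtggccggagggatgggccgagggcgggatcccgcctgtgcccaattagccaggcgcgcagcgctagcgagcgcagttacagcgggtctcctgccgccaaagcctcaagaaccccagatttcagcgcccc
Cd274, chr19:29367188-29367487: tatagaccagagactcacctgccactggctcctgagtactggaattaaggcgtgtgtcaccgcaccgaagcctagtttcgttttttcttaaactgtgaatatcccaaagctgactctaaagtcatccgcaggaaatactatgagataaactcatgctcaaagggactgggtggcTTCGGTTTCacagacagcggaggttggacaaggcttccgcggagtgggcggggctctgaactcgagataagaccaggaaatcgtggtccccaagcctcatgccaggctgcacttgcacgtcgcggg
Cd48, chr1:171681742-171682041: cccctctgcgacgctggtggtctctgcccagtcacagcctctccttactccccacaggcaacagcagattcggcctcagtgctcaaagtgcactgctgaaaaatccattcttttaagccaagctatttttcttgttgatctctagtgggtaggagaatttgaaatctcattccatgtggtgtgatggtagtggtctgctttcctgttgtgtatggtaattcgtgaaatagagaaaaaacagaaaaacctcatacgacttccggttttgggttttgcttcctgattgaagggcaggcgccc
A match describes the letters only and does not show that a factor binds. Sites that depart from these patterns were not counted, so a window without a match, such as that of Icam1 for NF-kB, may still hold a site.

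Other ligands of the same families went both ways. Of 13 measured B7 family, TNF superfamily and checkpoint ligands, 8 had at least 20 counts. Among these the size rule called 2 higher and 0 lower, and the median log2 ratio was 0.20. Lgals9, which encodes galectin-9, a ligand of the inhibitory receptor TIM-3, had 3016 counts in TKO, against 1331 in WT, 2.37-fold higher (2.22 to 2.53). Tnfsf8, the CD30 ligand, had 20 counts in TKO and 4 in WT, 5.23-fold higher (1.75 to 21.1). Vsir, which encodes the inhibitory B7 protein VISTA, was the second most abundant at 60.98 FPKM in TKO and 72.48 in WT, a log2 ratio of -0.21. Cd276 and Pvrl2, which encode B7-H3 and nectin-2, were lower, at log2 ratios of -0.75 and -0.73, but below the size threshold.

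Adhesion and SLAM family genes lay mostly above 0, like Icam1 and Cd48. Of 20 measured, 13 had at least 20 counts, 12 of these lay above 0 and 9 had intervals above 0, with a median log2 ratio of 0.44. Selplg, a selectin ligand, had a log2 ratio of 0.29, and Cd84, a SLAM family receptor, had 0.00015, with 138.49 FPKM in TKO and 142.19 in WT.

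Several receptors for these ligands were themselves measured in the cultures. Itgb2, the beta chain of LFA-1 and Mac-1, stood at 344.49 FPKM in TKO and 292.69 in WT (log2 ratio 0.27), and Itgal, the alpha chain of LFA-1, at 36.85 in TKO and 40.13 in WT (-0.086). Itgam, the alpha chain of Mac-1, had 157.59 FPKM in TKO and 199.96 in WT (-0.31). Itgax, which encodes CD11c, was the 1 of 7 receptor genes with at least 20 counts that passed the size rule, at 2.58-fold higher (2.27 to 2.93). Cd28, the T cell receptor of CD80 and CD86, had 948 counts in TKO and 874 in WT, a log2 ratio of 0.18 (0.049 to 0.32). Icos and Tnfrsf9 had under 20 counts in both libraries, and Ctla4, Pdcd1 and Cd40lg were not analysed here.

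None of the genes fixed for signalling downstream of CD40 passed the size rule, while 4 of the 16 interferon regulators did. Of 20 CD40 and NF-kB genes, the size rule called 0 in either direction, and their median log2 ratio was -0.034. Traf1, an adaptor of TNF family receptors, had 0.76 (0.29 to 1.25) and Rel, which encodes the NF-kB subunit c-Rel, had -0.83 (-1.16 to -0.51). The abundant members Rela, an NF-kB subunit, and Nfkbia, an inhibitor of NF-kB, had -0.22 and 0.18. Of the interferon regulators, 4 were higher and 0 lower, 10 had intervals above 0 and 2 below it, and the median log2 ratio was 0.18. Among those called, Irf7 was 4.80-fold higher, Stat2 2.80-fold higher and Socs1 2.44-fold higher, the last on 28 counts in TKO and 12 in WT. Irf1, a transcription factor known to act on Cd274, had 810 counts in TKO and 548 in WT, 1.55-fold higher (1.39 to 1.73). Of the interferon receptor genes, Ifnar1 had a log2 ratio of -0.44 (-0.53 to -0.36), Ifnar2 0.088, Ifngr1 -0.028 and Ifngr2 0.21, and the receptor kinase gene Jak2 had -0.17 (-0.34 to -0.0074). The part of these regulators in the ratios of the ligand genes was not tested.

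No gene listed for the trafficking and stability of these proteins or of their receptors passed the size rule. Of 11 measured, 4 had intervals above 0 and 5 below it, with a median log2 ratio of -0.13. The lowest were Lrba, which protects CTLA-4 from degradation, at -0.53 (-0.79 to -0.28), and Cmtm4, a relative of Cmtm6, at -0.49 (-0.71 to -0.28). With the length trend removed these were at -0.13 and -0.18. March1, the ubiquitin ligase that removes CD86 from the surface, had -0.18 (-0.40 to 0.044), and Cmtm6, which protects PD-L1 from degradation, had -0.13 (-0.26 to -0.0063). The most abundant, Atp6ap2, a proton pump accessory protein, and Adam10, a sheddase, had 0.13 and -0.19. Protein was not measured.

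**Figure D5:**
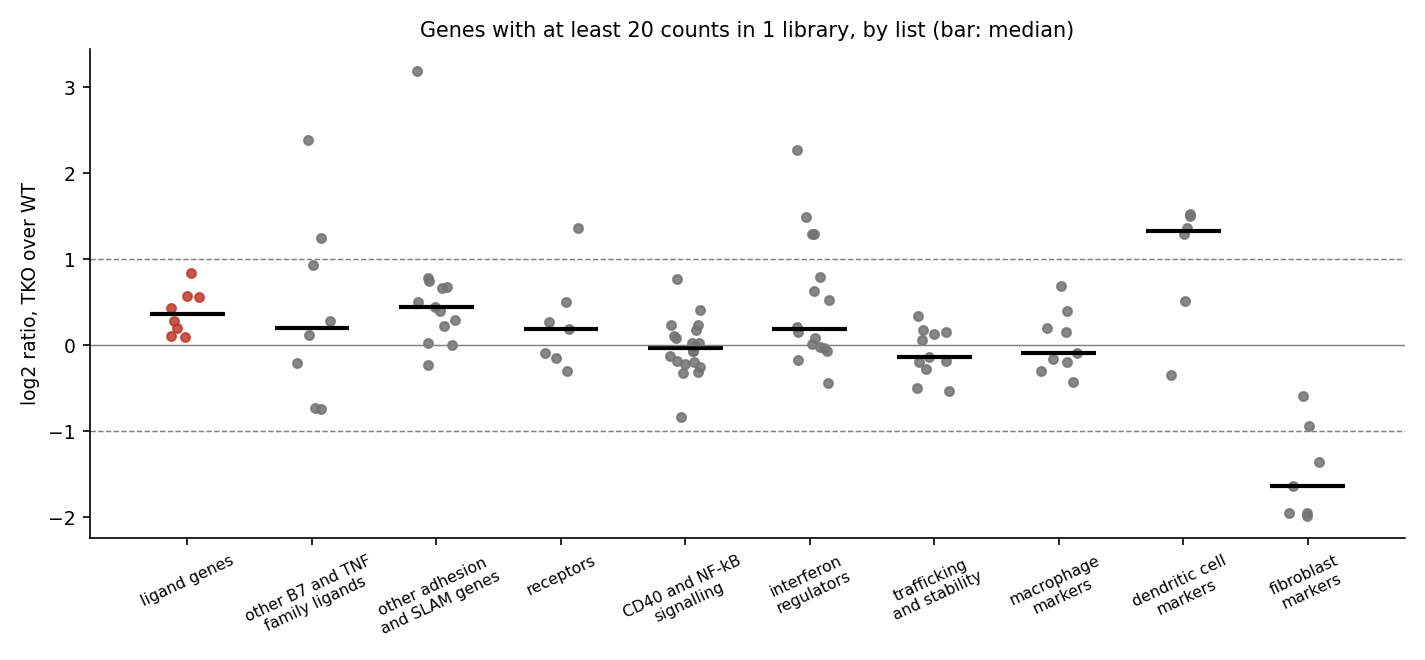
Log2 ratio of TKO over WT of each gene with at least 20 counts, by list, with the median as a bar; the ligand genes are in red. The ligand genes lie between 0 and 1, while single interferon regulators, dendritic cell markers and fibroblast markers lie beyond 2-fold.

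Markers of other cell types differed between the libraries and are given because dendritic cells carry several of these ligands at high levels. Of 11 dendritic cell markers, 6 had at least 20 counts and 4 of these were higher by the size rule, and the sum over all 11 was 47.1 FPKM in TKO and 22.6 in WT. Cd24a and Itgax, which is also counted among the receptors, made up most of it in both libraries. Flt3 and Dpp4 had 27 and 22 counts in TKO and 10 and 8 in WT. Xcr1 and Fscn1 had 34 and 93 counts in TKO and 25 and 124 in WT, with intervals that included 0. The other 5 had under 20 counts in both libraries, with Ccr7 at 14 in TKO and 5 in WT, Siglech at 6 in TKO and 4 in WT, Zbtb46 at 3 counts in TKO and 5 in WT, Clec9a at 4 in TKO and 1 in WT, and Cd209a at 0 in TKO and 1 in WT. Fibroblast and stromal markers summed to 26.3 FPKM in TKO and 92.6 in WT, with 5 of 8 lower by the size rule, namely Col1a1, Col1a2, Col3a1, Pdgfra and Postn. Col1a1, the most abundant of them, had 693 counts in TKO and 2871 in WT. B cell markers summed to 1.92 FPKM in TKO and 2.62 in WT, where Ebf1 was lower by the size rule, and T and NK cell markers to 2.62 in TKO and 3.09 in WT, where Cd4 was lower. Neutrophil markers summed to 8.63 FPKM in TKO and 4.57 in WT, with S100a8 higher, and endothelial markers to 7.75 in TKO and 4.99 in WT, with Kdr higher. In these bulk cultures, fewer cells of a type and less RNA per cell cannot be told apart, and the part of other cells in the ligand ratios was not tested.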

How the data were processed

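RNA enriched for polyadenylated molecules was profiled in 1 library per genotype. The deposited table gives expected counts, estimates of the reads of each gene, and 21.1% of the TKO values and 21.3% of the WT values were not whole. The deposited FPKM values are scaled by the authors for gene length and depth, per the file headers. The tools named, without roles, are RSEM 1.2.12, HISAT2 2.0.4 and Bowtie2 2.2.5, and the build is mm10, per the submitters' processing notes. Neither annotation nor filters are given in the sources used. The authors' deposited log2 ratio equals the log2 of TKO over WT FPKM, and their table gives a gene length in bases, per the file headers. Columns were assigned by genotype, and every column of values per sample was matched.

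Counts were rounded and scaled with TMM factors (0.988 for TKO, 1.01 for WT; edgeR 4.0.16, R 4.3.3). Intervals for the TKO over WT ratio are exact conditional binomial (Clopper-Pearson) intervals, those for levels exact Poisson intervals, and those for changes in the ratio of 2 genes conditional odds-ratio intervals (scipy 1.17.1). They cover counting error only, since each genotype had 1 library. Reads were counted without molecular identifiers, so duplicate reads, if present, would make the intervals too narrow. A count of 0 was set to 3, and no ratio was given where the other count was 3 or fewer. No test was run, and the code of the size rule was checked on simulated data with known ratios. All 10 ligand genes are named. Of the other lists, every gene past the size rule and the 2 most abundant are named, with some chosen regulators, receptors and flanking genes. Some others were chosen after their values were seen. These were Traf1, Rel, Cd276, Pvrl2, Itgal, Icos, Tnfrsf9, Ifnar1, Ifngr1, Jak2, Lrba, Cmtm4, Lyz2, Mertk and the dendritic cell markers short of the size rule. Endothelial, neutrophil, B cell and T and NK cell markers are named only where past the size rule. Some genes that this rule takes are left out of the text. The ligand genes and lists were chosen with earlier results of these data known. Lowess trends (span 0.3) were fitted with statsmodels 0.14.6.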

Additional observations from a re-analysis of the deposited data

How the results depend on the processing

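No setting gave a 2-fold difference for a ligand gene that had a value under it; Pdcd1lg2 had none under any setting, and Tnfsf9 had one under 3 alternatives. With a threshold of 1.5-fold, 1 of the 8 ligand genes tested, Cd274, was called higher and 0 lower. Of all 11525 genes tested, that threshold called 591 higher and 636 lower. The median log2 ratio was 0.56 with a count minimum of 100, which leaves 5 genes, and 0.25 with the length trend removed. With library totals, DESeq2 size factors, either FPKM scale or no count minimum it lay between 0.32 and 0.43. Of 56 values of single genes under these settings, 55 stayed inside the gene's counting interval, and the exception was Cd48 at 0.11 with the length trend removed; Cd274 ranged from 0.72 to 0.88. Under the wider counting interval the number of ligand genes above 0 was again 5, and 12.3% of all genes tested lay above 0. No paired analysis was possible because each genotype had 1 library. Depth limits Cd80, Tnfsf9 and Pdcd1lg2 most.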
